A study of Mus musculus with 12 samples.

Results

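The brightest cells of a Sox2 reporter sort, the High bin, were set against those of the second dimmest bin, MedLow. All libraries labelled High and all labelled MedLow entered, 3 of each, so 6 of the 12 libraries of the series are described here. All libraries came from circumvallate papilla epithelium of adult mice aged 11 to 12 weeks with the genotype Sox2GFP, so both bins carry the reporter. Each replicate pooled 7 to 13 mice, the peeled epithelium was dissociated with enzymes, and cells were sorted by brightness of green fluorescent protein (GFP) into Low, MedLow, HiMed and High bins. Cells without GFP were discarded, the labels name no agent, and both bins hold mixed epithelial cells that share only a range of reporter brightness. Polyadenylated RNA was sequenced.

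The circumvallate papilla, at the back of the tongue, carries taste buds in its trench walls, surrounded by stratified epithelium. Basal keratinocytes, which hold Krt5 and Krt14, divide and give rise either to suprabasal cells, which make Krt13 and Krt4 and flatten towards the surface, or to short-lived precursors that enter taste buds and make Shh. Taste buds contain glia-like type I cells, type II cells that detect sweet, bitter and umami, and type III cells that detect sour, and they contain keratins of simple epithelia such as Krt8. SOX2 is a transcription factor needed for taste buds to form and be renewed, and Wnt, Hedgehog and Notch signals act on the same lineage.

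The High libraries held 42.4, 53.4 and 48.8 M estimated counts, and the MedLow libraries 40.3, 42.5 and 39.0 M. Genes with any count numbered 16911, 18421 and 18336 in the High libraries and 19377, 19060 and 18907 in the MedLow libraries. High thus held fewer genes, and the part of this in genes without a count in High was not tested. Levels are given as CPM, counts brought to a common library total, values with ± are mean and SD over n = 3 libraries, and a gene was called at an adjusted p below 0.05 in edgeR's quasi-likelihood test. A signed or bare value in brackets after a gene is its log2 fold change of High over MedLow. In a principal component analysis of the 6 libraries over the 1000 genes of greatest variance, component 1 held 67.9% of the variance, and on it High lay wholly apart from MedLow. Component 2, with 10.8%, set High replicate 1 (54.5) apart from High replicates 2 (-40.8) and 3 (-21.5). Mitochondrially encoded transcripts took 2.22 to 2.29% of counts in High and 2.65 to 3.56% in MedLow, and the part of this in any result was not tested. Sox2 stood at 373 ± 12.8 CPM in High and 98 ± 1.2 in MedLow, and the reporter transcript eGFP at 538 ± 15.7 CPM in High and 145 ± 9.25 in MedLow. That direction was set by the sort and is no finding. In pooled tissue, fewer cells of a type and less RNA per cell cannot be told apart.

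Of 17432 genes tested, 6603 (37.9%) differed between the bins, 3172 (18.2%) higher in High and 3431 (19.7%) lower. For 51.3% of genes tested the High and MedLow libraries held separate ranges, as they did for 97.9% of the genes called. Differences of at least 2-fold numbered 1585 higher and 1321 lower, and those of at least 8-fold 466 and 477. Among the genes called, 242 had no count in any High library and 73 had none in any MedLow library. The median log2 fold change over all genes tested was -0.01, so the shares and the median above are the yardstick for every list below. On the deposited TPM values (transcript abundances that also correct for length), after adding 1, the balance moved to 4151 higher and 1764 lower, 70.2% of calls being higher against 48.0% in the counts, and the median over all genes shifted to 0.15. With library size as the only scaling, 3811 were higher and 2796 lower.

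**Figure D1:**
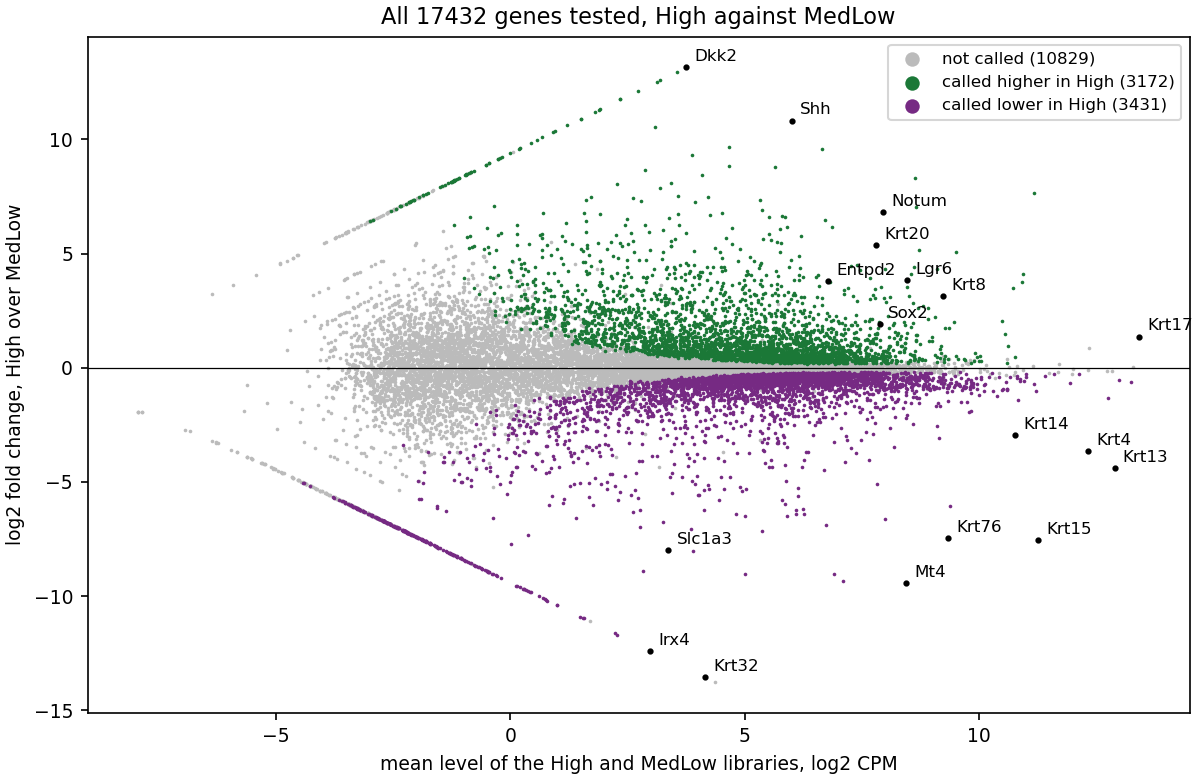
Each point is 1 of the 17432 genes tested, by its mean level in both bins (log2 CPM, horizontal) and its log2 fold change of High over MedLow (vertical), with the genes called higher in green, lower in purple and not called in grey. Points on the 2 slanting lines had 0 counts in 1 bin, and their fitted fold changes depend on a small prior count; Shh stands at 10.82 and Krt15 at -7.53.

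The largest fitted changes were ranked among called genes with separate ranges, at least 10 CPM in the higher bin and no clone or predicted-gene symbol. Of the 12 largest increases in High within these limits, 7 had no count in any MedLow library. For those 7 only a lower bound of the fold can be given. The Wnt inhibitor Dkk2 had 25.6, 16.6 and 38.2 CPM in the High libraries and 0, 0 and 0 in the MedLow libraries. With no count in any MedLow library, its mean in High was at least 1055-fold higher (adjusted p = 0.0002). This bound and those below use the mean of the bin with counts and leave out the spread between its libraries. By the same floor of 3 counts over the bin, the growth factor Igf1 was at least 924-fold higher, Fgf3 at least 721-fold, the phosphodiesterase Pde11a at least 686-fold and the oxytocin receptor Oxtr at least 519-fold. Tmprss6 and Lrrc17 also had no count in MedLow. The other 5 had counts in both bins: Shh (10.82), the potassium channels Kcnj1 (9.67) and Kcnc2 (9.34), Serpina1e (9.59), and Klhl14, with 1 count in MedLow. A bound and a fitted value cannot be put in 1 order.

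Of the 12 largest fitted decreases within the same limits, Krt32 and Irx4 had no count in High. The limits left out genes below 10 CPM in MedLow with no count in High, such as Mt3 (-11.63), Sprr2g (-10.19) and Serpinb3c (-9.67). In all, 242 called genes had no count in High. The hair-type keratin Krt32 had 0, 0 and 0 CPM in the High libraries and 39.2, 36.2 and 31.1 in the MedLow libraries, which makes it at least 1772-fold lower in High. Irx4, a homeobox factor, had 15.8 CPM on average in MedLow and no count in High, a decrease of at least 790.5-fold. The imprinted RNA H19 had 0.225, 0.979 and 0.120 CPM in the High libraries and 244, 277 and 196 in the MedLow libraries. The High libraries were all close to 0 and the MedLow libraries far above them (log2 fold change -9.01, SE 0.64, adjusted p = 6.8e-06). The proteoglycan-cleaving enzyme Adamts15 (-9.04), the transporter Slc16a9 (-8.02), the mono-oxygenase Fmo1 (-8.89) and the protease inhibitor Slpi (-7.15) had fewer than 1 CPM on average in High. The call of Slpi was lost with limma voom (adjusted p = 0.0732). The 12 also held Krt15, Krt76, Mt4, Serpinb3a and Slc1a3.

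Keratins of suprabasal mucosa were much lower in High, while Krt17 was higher. Of 13 suprabasal keratins tested, 9 fell, 1 rose and 3 were not called, with a median log2 fold change of -2.08. This pair of bins was chosen with the keratins of MedLow known, so their direction is no independent evidence. Krt13, the type I keratin of internal stratified mucosa, had 485, 874 and 689 CPM in the High libraries and 13850.0, 15276 and 14321 in the MedLow libraries. The bins lay far apart (log2 fold change -4.41, SE 0.42, adjusted p = 3.2e-05). Its partner Krt4 had 665, 941 and 681 CPM in the High libraries and 10134, 8576 and 9712 in the MedLow libraries, again with no overlap (log2 fold change -3.64, SE 0.36, adjusted p = 3.3e-05). Krt76, a keratin of oral suprabasal cells, had 0.0225, 5.93 and 15.9 CPM in the High libraries and 592, 1997 and 1282 in the MedLow libraries, so that libraries varied widely within both bins while staying apart (log2 fold change -7.46, SE 1.34, adjusted p = 0.00236). Krt24 (-6.49) and Krt1 (-6.18) fell as well. Krt17, a keratin of activated epithelium and appendages, had 14958, 19236 and 13153 CPM in the High libraries and 5616, 5582 and 7247 in the MedLow libraries, each High library above each MedLow library (log2 fold change 1.36, SE 0.14, adjusted p = 1.4e-06). Krt6a stood at 10120.0 ± 1864 CPM in High and 9751 ± 1229 in MedLow (log2 fold change 0.05, adjusted p = 0.825), and its near-identical relative Krt6b at 792 ± 194 CPM in High and 1869.5 ± 310.5 in MedLow. Reads of Krt6a and Krt6b, and of Krt14, Krt16 and Krt17, can be split uncertainly between copies. With library size only, with only the 6 libraries in the fit, with the replicate number as a block and on the filtered TPM scale, 2 rather than 1 were called higher.

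Per length, the make-up of the keratins differed. All keratins tested took 3.82 to 4.77% of TPM in the High libraries and 5.56 to 6.27% in the MedLow libraries. In High the most abundant was Krt17, with 47.3% of keratin TPM, followed by Krt6a (19.9%) and Krt5 (8.11%). In MedLow it was Krt13 with 29.1%, followed by Krt5 (12.0%) and Krt4 (11.9%). Krt75, a keratin of hair follicle companion cells and of filiform papillae, ranked 4 in High at 2030 ± 227 TPM and 15 in MedLow at 126 ± 26.1 TPM.

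**Figure D2:**
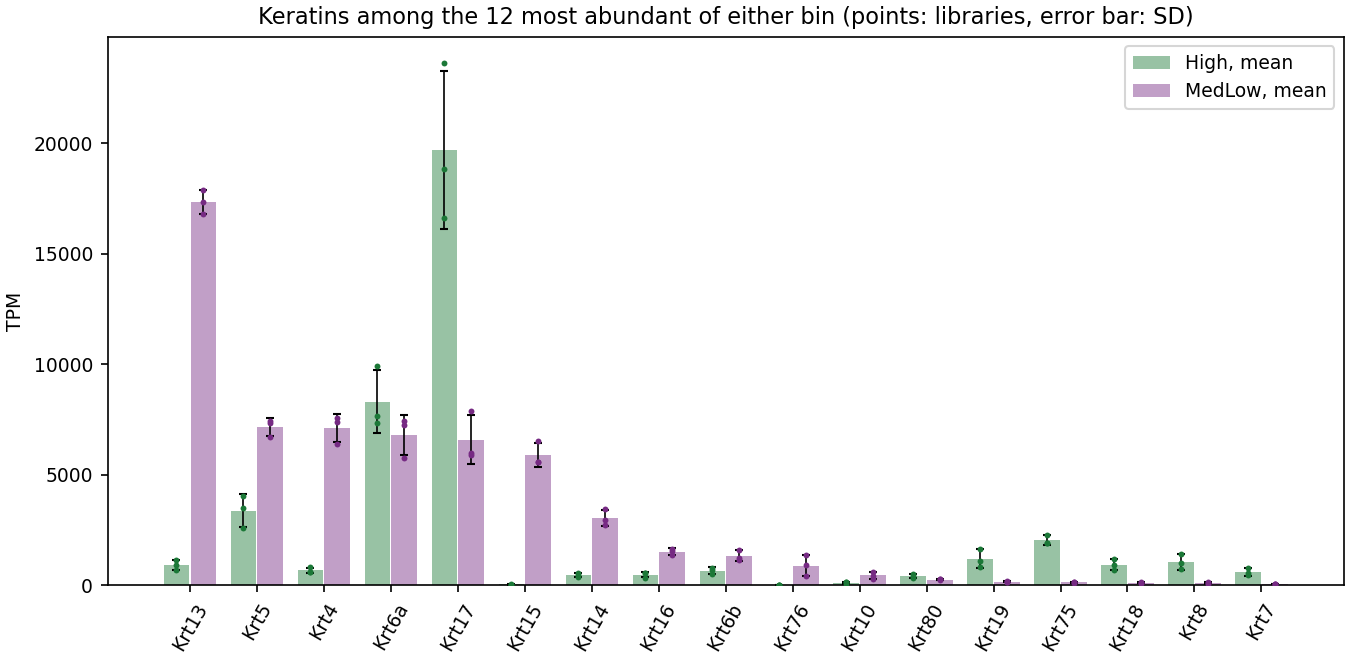
Bars give the mean TPM (vertical, linear from 0) of the keratins among the 12 most abundant of either bin, points the 3 libraries and error bars the SD. Krt17 reached 19685 TPM in High against 6589 in MedLow, and Krt13 915 against 17335.

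Of 6 hair-type and filiform keratins tested, Krt32 alone was called, and it fell (16.7%, against 19.7% of all genes); 2 fell with the 1 CPM filter, with only the 6 libraries, with the block and with TPM + 1, and 3 with TPM + 0.1 and without High replicate 2. Their summed level was 4.11 to 7.71 CPM in High and 40.03 to 56.03 in MedLow, where Krt32 itself had 31.1 to 39.2 CPM. Krt75, described above, was not in this list, and it went the other way, at 2030 TPM in High and 126 in MedLow.

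Basal keratins were lower in High too, while genes that anchor basal cells moved in both directions. Of 18 genes tested, 11 fell (7 on the unfiltered TPM scale) and 3 rose, with a median of -0.51. Krt15, a keratin of basal progenitors, had 21, 35.9 and 22.2 CPM in the High libraries and 4789, 5388 and 4479 in the MedLow libraries. Every High library lay far below every MedLow library (log2 fold change -7.53, SE 0.35, adjusted p = 8.5e-08). Krt14 had 401, 469 and 332 CPM in the High libraries and 2759.6, 3046 and 3445 in the MedLow libraries (log2 fold change -2.94, SE 0.13, adjusted p = 6.8e-10), and Krt5 had 4091, 4796 and 2988 CPM in the High libraries and 9277, 10148 and 10085 in the MedLow libraries (log2 fold change -1.31, SE 0.13, adjusted p = 1.1e-06). Neither overlapped between bins, and the difference of Krt5 was the smaller of these. The hemidesmosome genes Dst (-1.94) and Col17a1 (-1.40) fell. The integrin Itgb1 (0.72) and the tetraspanin Cd151 (0.67) rose. Trp63, a regulator of stratified epithelium, stood at 454 ± 114 CPM in High and 914 ± 30.1 in MedLow (log2 fold change -1.01, adjusted p = 3.7e-05).

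Genes of the cornified envelope and barrier moved in both directions. Of 33 tested, 13 fell, 7 rose and 13 were not called, with a median of -0.30. Falling members included filaggrin, Flg, with 0.338, 1.69 and 2.65 CPM in the High libraries and 48.9, 218 and 140.4 in the MedLow libraries (log2 fold change -6.42, SE 0.89, adjusted p = 0.00049), its relative Flg2 (no count in High and 0.957 CPM in MedLow; its adjusted p was 0.367 with TPM + 1 and 0.112 with TPM + 0.1), the skin caspase Casp14 (-6.76), the small proline-rich Sprr1b (-5.22) and cornulin, Crnn (-4.97, adjusted p = 0.00643 and 0.0611 with limma voom). Rising members included Mal, a lipid raft protein, with 277, 403 and 466 CPM in the High libraries and 14.4, 17.3 and 44.3 in the MedLow libraries (log2 fold change 3.92, SE 0.56, adjusted p = 0.00056), and the extracellular matrix protein Ecm1, with 2688, 2468 and 4182 CPM in the High libraries and 222, 231 and 385 in the MedLow libraries (log2 fold change 3.48, SE 0.33, adjusted p = 2.7e-05). None of these groups overlapped. Sprr2a1 (3.85) and Sprr1a (2.03) rose also, though near-identical Sprr2a copies make the reads of Sprr2a1 uncertain. Of 15 small proline-rich genes, grouped by symbol after their values were seen, 8 fell and 4 rose, with a median of -3.95. On the unfiltered TPM scale 5 fell, and 2 rose with DESeq2 or without MedLow replicate 3. Their summed level was 5668 to 7892 CPM in High and 646.5 to 1157 in MedLow. The crosslinking enzyme Tgm3 and the scaffold Ppl differed by 0.03 and 0.01.

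Desmosome genes moved in both directions. Of 13 genes tested, 7 fell and 4 rose. The cadherins of upper layers fell: Dsc1 (1.73 ± 1.5 CPM in High and 135 ± 54.9 in MedLow; -6.25, adjusted p = 0.00126 and 0.0723 with limma voom), Dsg1a (-5.07) and Dsg1b (-2.62), the last pair being near copies. Dsg2, the desmoglein of simple epithelia, stood at 166 ± 37.3 CPM in High and 71.7 ± 4.14 in MedLow (1.21, adjusted p = 2.9e-06), and the plakophilin Pkp2 rose by 2.78. The plaque proteins Dsp (-0.14, adjusted p = 0.397) and Jup (-0.11, adjusted p = 0.415) were not called.

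Of 24 transcription factors of stratified epithelium, 13 fell and 3 rose (5 with the replicate block), with a median of -0.68. Besides Irx4, the homeobox gene Barx2 stood at 1.78 ± 0.598 CPM in High and 209 ± 10.1 in MedLow (log2 fold change -6.88, SE 0.42, adjusted p = 1.5e-06), and Maf (-4.03) and Pax9 (-1.68) fell. Elf3, an ETS factor of epithelial differentiation, rose by 1.74, and Klf4 by 0.45. Clade B serpins and secreted inhibitors had 9 members lower and 4 higher of 17, with a median of -0.90 (2 higher without High replicate 3 or without MedLow replicate 1). Serpinb3a, a cysteine protease inhibitor with near-identical copies, had 0, 0.562 and 0.638 CPM in the High libraries and 204, 335 and 278 in the MedLow libraries (adjusted p = 4.1e-05, and 0.0545 with limma voom). Of 19 S100 and antimicrobial genes 7 fell, among them the defensin Defb4 (-4.78), and 4 rose, among them the lysozyme gene Lyz2 (3.97) and S100a6 (2.14). The 7 became 4 with only the 6 libraries in the fit and 3 without MedLow replicate 3.

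All 4 metallothioneins, small proteins that bind zinc and copper, were lower in High, with a median of -6.17 (-5.89 with Mt3 at its bound). Their promoters are shown because the genes lie side by side and moved together. The sequences are from RefSeq (GRCm38.p6, all on the plus strand), cover the 250 bases before each gene's start, and were matched by symbol, since the deposited values name another build. Capitals mark matches to the core of the metal response element, TGCACNC or TGCGCNC on either strand:
Mt4, chr8:94136954-94137203: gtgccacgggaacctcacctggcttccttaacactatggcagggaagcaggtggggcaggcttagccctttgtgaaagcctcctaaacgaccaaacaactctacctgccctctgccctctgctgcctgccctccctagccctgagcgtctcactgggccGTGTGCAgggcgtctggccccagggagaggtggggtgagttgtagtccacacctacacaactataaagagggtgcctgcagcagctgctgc
Mt3, chr8:94152357-94152606: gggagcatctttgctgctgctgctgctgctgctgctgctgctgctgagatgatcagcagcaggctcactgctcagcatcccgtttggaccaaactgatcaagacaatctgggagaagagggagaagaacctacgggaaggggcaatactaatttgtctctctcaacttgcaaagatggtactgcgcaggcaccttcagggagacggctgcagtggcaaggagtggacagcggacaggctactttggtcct
Mt2, chr8:94172368-94172617: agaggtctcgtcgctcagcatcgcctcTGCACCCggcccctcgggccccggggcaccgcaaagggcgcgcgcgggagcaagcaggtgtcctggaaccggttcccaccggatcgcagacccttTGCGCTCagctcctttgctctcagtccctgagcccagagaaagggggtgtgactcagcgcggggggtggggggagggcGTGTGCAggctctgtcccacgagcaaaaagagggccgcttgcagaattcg
Mt1, chr8:94178839-94179088: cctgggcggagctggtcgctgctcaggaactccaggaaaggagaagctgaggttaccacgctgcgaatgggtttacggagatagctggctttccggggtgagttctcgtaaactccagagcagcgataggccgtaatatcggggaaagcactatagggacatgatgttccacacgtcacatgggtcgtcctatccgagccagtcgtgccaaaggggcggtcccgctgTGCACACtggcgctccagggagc
Counting also the 50 bases after the start, the promoters held 1 match in Mt4, 1 in Mt3, 4 in Mt2 and 3 in Mt1. Of 32851 RefSeq promoters of the same 300 bases, 25.7% held at least 1 match and 1.97% held 3 or more. A second search, for CTTTGA on either strand, a core bound by TCF and LEF factors, was made for 8 genes higher in High (Axin2, Nkd1, Lgr6, Wif1, Dkk2, Notum, Lgr5 and Shh). The first 5 of these were matched and none held it, against 16% of all promoters. Both searches were chosen after expression values were seen, and a match or its absence describes letters only.

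Mt4, the metallothionein of stratified squamous epithelium, had 0.360, 1.54 and 1.04 CPM in the High libraries and 678, 804 and 610.0 in the MedLow libraries. The High libraries were near 0 and the MedLow libraries were not (log2 fold change -9.43, SE 0.62, adjusted p = 4.1e-06). Mt3 had 0, 0 and 0 CPM in the High libraries and 8.05, 12.1 and 7.95 in the MedLow libraries, at least 468-fold lower in High. Mt1 and Mt2, the forms found in most tissues, had smaller fold changes: Mt1 had 66.7, 57.2 and 45.6 CPM in the High libraries and 219.9, 254 and 197 in the MedLow libraries (log2 fold change -1.99, SE 0.14, adjusted p = 7.6e-08), and Mt2 had 67.5, 50.6 and 32 CPM in the High libraries and 376, 413 and 340.1 in the MedLow libraries (log2 fold change -2.91, SE 0.24, adjusted p = 5.9e-06). No High library reached a MedLow library for any of the 4.

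Keratins and junction genes of taste buds were higher in High. Of 12 tested, 11 rose and none fell, with a median of 2.71; Cldn8 stood at 26.4 ± 4.42 CPM in High and 25.2 ± 0.977 in MedLow. Krt20, a keratin of simple epithelia, had 381, 385 and 540.1 CPM in the High libraries and 6.89, 8.62 and 16 in the MedLow libraries (log2 fold change 5.38, SE 0.38, adjusted p = 3.7e-06). Krt8 had 1019.5, 765 and 1469 CPM in the High libraries and 124, 86.1 and 162 in the MedLow libraries (log2 fold change 3.13, SE 0.30, adjusted p = 2.3e-05), and Krt7 610.1, 478 and 869 CPM in the High libraries and 44.3, 59 and 65 in the MedLow libraries (log2 fold change 3.54, SE 0.26, adjusted p = 2.6e-06). Each High library was above each MedLow library, and replicate 3 was the highest of its bin in all 3 genes. Krt18, Krt19, the potassium channel Kcnq1 and the claudins Cldn4, Cldn6 and Cldn7 rose by 1.76 to 3.28, and Epcam by 1.77.

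**Figure D3:**
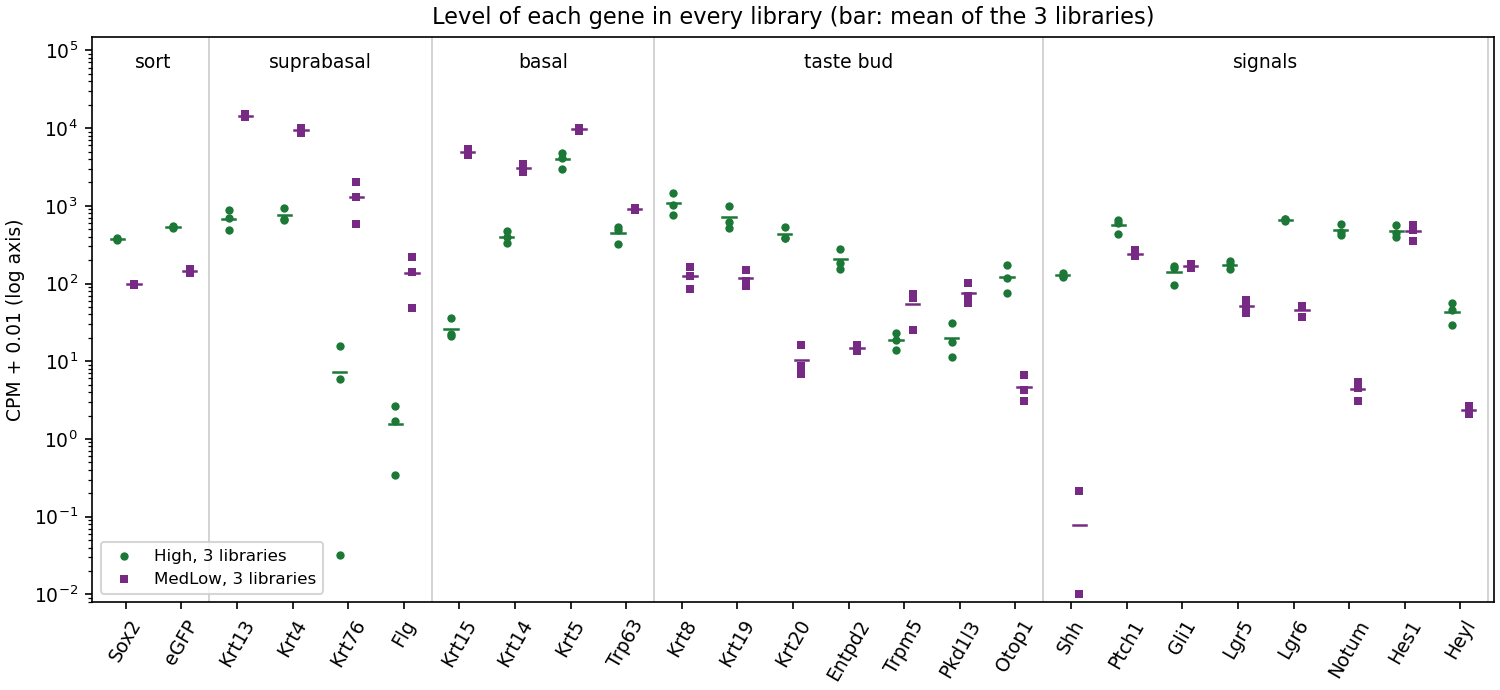
Each point is the level of 1 gene in 1 library (CPM + 0.01, log axis), with High in green circles, MedLow in purple squares and bars at the means of 3. Among the genes plotted, Krt15 and Shh lie furthest apart in opposite directions, while Hes1 and Gli1 overlap.

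Genes of the mature taste cell types did not move as one. Among 5 type I genes, 4 rose and 1 fell. Entpd2, the enzyme that breaks down transmitter ATP, had 183, 155 and 277 CPM in the High libraries and 14.9, 16.2 and 13.6 in the MedLow libraries (log2 fold change 3.78, SE 0.22, adjusted p = 8.1e-08), and Kcnj1 37, 34.8 and 80.7 CPM in the High libraries and 0, 0 and 0.184 in the MedLow libraries. Slc1a3, the glutamate transporter GLAST, had 0, 0.218 and 0 CPM in the High libraries and 20.6, 21.7 and 19.5 in the MedLow libraries (log2 fold change -7.97, SE 1.08, adjusted p = 0.00034). So 2 markers of the same cell type differed in opposite directions with no overlap of libraries. Slc6a11 rose by 0.93 (adjusted p = 0.0176), a call lost without High replicate 1, High replicate 2 or MedLow replicate 2, with adjusted p between 0.0635 and 0.0729.

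Of 22 type II genes, 10 fell (5 on the unfiltered TPM scale), 3 rose (5 on the TPM scale) and 9 were not called, with a median of -1.47. Trpm5, the cation channel of the taste cascade, had 18.8, 23 and 13.9 CPM in the High libraries and 72.5, 25.4 and 64.4 in the MedLow libraries (log2 fold change -1.54, SE 0.44, adjusted p = 0.0226). MedLow replicate 2 lay near the High libraries, and the call was lost without High replicate 1 or 3 or MedLow replicate 1 or 3, with adjusted p between 0.0657 and 0.0887. It was also lost with limma on unfiltered TPM + 1 (adjusted p = 0.0833). Plcb2, the phospholipase upstream of it, had 52.8, 68.3 and 32.5 CPM in the High libraries and 169, 57 and 142 in the MedLow libraries, which overlapped (adjusted p = 0.0669). Tas2r105, a bitter receptor, had a mean of 2.61 CPM in MedLow and no count in High, a decrease of at least 130.3-fold. Its family shares sequence. The regulator Rgs21 (-3.27) and the sweet receptor subunits Tas1r2 (-2.09) and Tas1r3 (-1.91) fell. In the other direction, the G protein subunit Gna14 had 30.3, 24.5 and 47.3 CPM in the High libraries and 3.16, 0.992 and 3.05 in the MedLow libraries (log2 fold change 3.83, SE 0.42, adjusted p = 1.6e-05), and the actin-binding Avil stood at 448 ± 142 CPM in High and 54.3 ± 21.8 in MedLow. Pou2f3, the factor that specifies type II cells, stood at 23.6 ± 2.09 CPM in High and 18.6 ± 1.47 in MedLow (adjusted p = 0.101, and 0.0307 to 0.0424 on the TPM scales).

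Of 15 type III genes, 5 fell (3 on the filtered TPM scale, 1 on the unfiltered TPM scale) and 4 rose, with a median of -0.46. Otop1, the proton channel of sour taste, had 116, 75.4 and 173 CPM in the High libraries and 3.09, 4.31 and 6.58 in the MedLow libraries (log2 fold change 4.71, SE 0.45, adjusted p = 2.5e-05). Pkd1l3, a channel subunit of the same cells, had 17.4, 11.4 and 30.6 CPM in the High libraries and 56.3, 69.4 and 102 in the MedLow libraries (log2 fold change -1.94, SE 0.37, adjusted p = 0.00258). Thus Otop1 and Pkd1l3 lay apart in opposite directions, both with replicate 3 the highest of its bin. Car4, the carbonic anhydrase used to mark these cells, stood at 1.41 ± 0.376 CPM in High and 1.27 ± 0.141 in MedLow (adjusted p = 0.920), and no difference was detectable at this level.

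Most factors of the taste lineage were higher in High. Of 19 tested, 12 rose and 5 fell (1 or 2 on the TPM scale), with a median of 1.15; Sox2 itself is among the 12. The homeobox gene Prox1 had 137, 109.7 and 181 CPM in the High libraries and 9.82, 4.84 and 12.8 in the MedLow libraries (log2 fold change 3.96, SE 0.39, adjusted p = 3.2e-05), and the Notch-related factor Hes6 stood at 384 ± 9.05 CPM in High and 42.4 ± 6.21 in MedLow (log2 fold change 3.18, SE 0.11, adjusted p = 6.5e-11). Foxa2 had 139.9, 103 and 136 CPM in the High libraries and 23, 19.6 and 28.6 in the MedLow libraries (log2 fold change 2.41, SE 0.16, adjusted p = 8.6e-08), while its relative Foxa1 had 81.1, 74.1 and 96.9 CPM in the High libraries and 151, 137 and 128 in the MedLow libraries (log2 fold change -0.72, SE 0.10, adjusted p = 2.7e-05). The bins did not overlap for either, and the directions were opposite. The ETS factor Etv1 (2.25) rose. Isl1 had no count in High and 0.772 CPM in MedLow. Among 12 stem and progenitor markers, 5 rose and 3 fell, with a median of 0.20. Sox21 (1.44) rose, and the transferrin receptor Tfrc (-1.95) and Igfbp5 (-1.40) fell.

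The Hedgehog ligand Shh was higher in High, as was its receptor Ptch1, while Gli1 was not called. Shh had 135, 123 and 126 CPM in the High libraries and 0.206, 0 and 0 in the MedLow libraries. Only 1 MedLow library held any count (log2 fold change 10.82, SE 1.00, adjusted p = 3.3e-05). Ptch1, also a target of the pathway, had 603, 666 and 429 CPM in the High libraries and 237, 223 and 268 in the MedLow libraries (log2 fold change 1.22, SE 0.16, adjusted p = 4.2e-05). Gli1, the transcription factor that is also a target, had 159, 168 and 95.3 CPM in the High libraries and 180.1, 160.0 and 158 in the MedLow libraries, which overlapped (log2 fold change -0.24, SE 0.17, adjusted p = 0.295). The co-receptor Boc had 18.8, 19.2 and 13.6 CPM in the High libraries and 82.8, 82.3 and 79 in the MedLow libraries (log2 fold change -2.24, SE 0.12, adjusted p = 3.1e-09), every High library below every MedLow library. Of 16 Hedgehog genes, 2 rose and 5 fell, with a median of -0.30. The others lower were the signal transducer Smo (-0.73), Cdon (-0.71), Gli2 (-0.66) and Sufu (-0.36). On the TPM scale 2 fell, and Cdon differed by 0.03.

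Of 43 Wnt genes tested, 26 rose and 13 fell, with a median of 0.56. Secreted and intracellular inhibitors were among those higher. Notum, an enzyme that inactivates Wnt ligands, had 465, 419.5 and 581 CPM in the High libraries and 3.11, 4.53 and 5.45 in the MedLow libraries (log2 fold change 6.81, SE 0.28, adjusted p = 2.4e-08). An antisense gene, Notumos, overlaps it and rose by 4.34, and the counting is not stated to use strand. Nkd1, an intracellular inhibitor, had 107, 73.6 and 131 CPM in the High libraries and 3.52, 2.37 and 3.32 in the MedLow libraries (log2 fold change 5.08, SE 0.44, adjusted p = 8e-06), and the secreted inhibitor Wif1 had 294, 291 and 181 CPM in the High libraries and 28.5, 19.6 and 23.8 in the MedLow libraries (log2 fold change 3.41, SE 0.30, adjusted p = 1.4e-05). Axin2, a general target, had 70.2, 69.2 and 88.4 CPM in the High libraries and 23.4, 24.9 and 19.6 in the MedLow libraries (log2 fold change 1.74, SE 0.15, adjusted p = 3.2e-07). For all 4, each High library was above each MedLow library.

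The R-spondin receptors Lgr6 and Lgr5 mark lingual progenitors. Lgr6 had 676, 639.9 and 668 CPM in the High libraries and 51.1, 36.8 and 49.9 in the MedLow libraries (log2 fold change 3.85, SE 0.16, adjusted p = 3.6e-09), and Lgr5 had 178, 193 and 155 CPM in the High libraries and 61.3, 41.4 and 52.8 in the MedLow libraries (log2 fold change 1.76, SE 0.22, adjusted p = 0.00011). The bins were apart for both, with the larger fold change in Lgr6, whereas Lgr4 stood at 79 ± 3.42 CPM in High and 123 ± 13.5 in MedLow and fell by 0.64. The nuclear partners Tcf7 (1.59) and Lef1 (1.44) rose. Ligands were split. Wnt5b (2.38), Wnt11 (1.43) and Wnt5a (1.30) rose, whereas Wnt10a had 7.68, 10.6 and 6.24 CPM in the High libraries and 80.9, 81 and 81 in the MedLow libraries (log2 fold change -3.31, SE 0.15, adjusted p = 1.3e-09), and Wnt4 (-2.23) and Wnt3a (-1.88) fell. Wnt10b had no count in High, a decrease of at least 60.2-fold. The secreted inhibitor Sfrp1 also fell (-3.31). Rspo3 was called higher at 0.398 CPM, with no count in MedLow or in High replicate 1. That call was lost with limma voom (adjusted p = 0.139), the replicate block (0.0657) and each TPM scale (0.0953 to 0.222), and without any 1 library other than High replicate 1 (0.0608 to 0.0831).

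**Figure D4:**
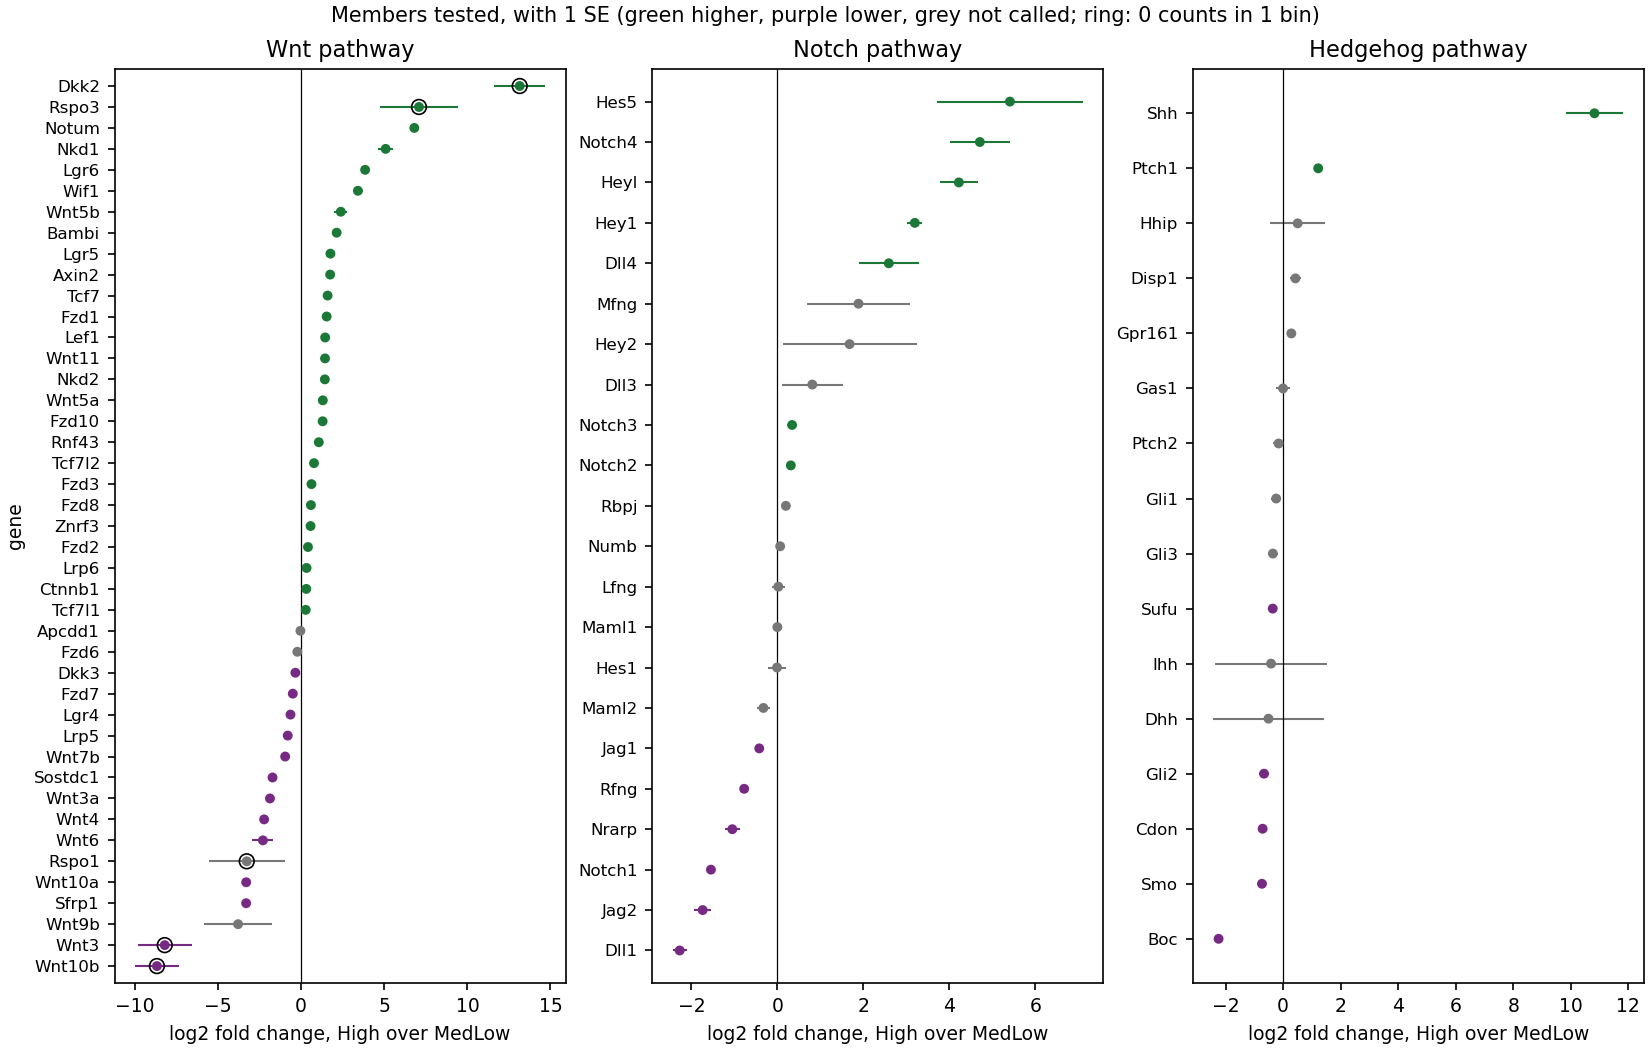
Log2 fold changes of High over MedLow (horizontal, with 1 SE) for the tested members of the Wnt, Notch and Hedgehog lists, green where called higher, purple lower and grey not called, on a separate axis for each list. Rings mark genes with 0 counts in 1 bin, whose fitted value depends on a small prior count; Notum stands at 6.81, Heyl at 4.22 and Boc at -2.24.

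In the Notch list, receptors, ligands and targets differed among themselves. Of 22 genes, 7 rose (4 without MedLow replicate 2) and 6 fell, with a median of 0.13. The target gene Heyl had 45.5, 29.4 and 55.8 CPM in the High libraries and 2.26, 2.66 and 2.08 in the MedLow libraries (log2 fold change 4.22, SE 0.45, adjusted p = 1.8e-05). Hey1, its relative, had 143, 115 and 107 CPM in the High libraries and 16.3, 11 and 12.7 in the MedLow libraries (log2 fold change 3.20, SE 0.17, adjusted p = 1.1e-08), so that both lay apart. Hes1, another target, had 563, 396 and 446 CPM in the High libraries and 571, 488 and 352 in the MedLow libraries, fully overlapping (log2 fold change -0.01, adjusted p = 0.985). Nrarp, a feedback target, fell by 1.05. Receptor Notch1 had 245, 219 and 179 CPM in the High libraries and 645, 614 and 615 in the MedLow libraries (log2 fold change -1.54, SE 0.10, adjusted p = 1.5e-08), while Notch4 rose by 4.71 and Notch2 and Notch3 by 0.31 and 0.34. The ligand Dll1 had 9.5, 15.7 and 10.6 CPM in the High libraries and 59.1, 60.4 and 53.7 in the MedLow libraries (log2 fold change -2.27, SE 0.16, adjusted p = 6.3e-08), and Jag2 fell by 1.74.

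BMP and TGF-beta genes included 13 higher and 3 lower of 28, with a median of 0.42. Bmp6 (106 ± 18.6 CPM in High and 15.2 ± 4.49 in MedLow; 2.80), the activin-binding Fst (2.77), Tgfb2 (2.76) and Tgfb3 (2.46) rose, and Bmp3 (-5.49) fell. Among 29 FGF and EGF genes, 13 rose and 9 fell (5 on the unfiltered TPM scale). Ligands Fgf20 and Fgf1 rose: Fgf20 had 22.6, 19.1 and 29.9 CPM in the High libraries and 0.0257, 0.750 and 0.132 in the MedLow libraries (log2 fold change 6.27, SE 0.90, adjusted p = 0.00022), and Fgf1 stood at 86 ± 28.4 CPM in High and 9.51 ± 1.42 in MedLow. Receptors were split. Fgfr2 had 135, 139 and 116 CPM in the High libraries and 455, 471 and 403 in the MedLow libraries (log2 fold change -1.77, SE 0.09, adjusted p = 2.1e-09), and Fgfr3 (-2.14) and Egfr (-1.23) fell too, whereas Fgfr1 (0.66) and Erbb3 (0.21, adjusted p = 0.0401) rose.

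Of 33 neurotrophin and axon guidance genes, 13 rose and 10 fell. Bdnf, the neurotrophin that draws taste nerve fibres, had 139, 115 and 139 CPM in the High libraries and 39.5, 27.4 and 34.2 in the MedLow libraries (log2 fold change 1.96, SE 0.14, adjusted p = 9.8e-08). Its receptor Ntrk2 had 1.69, 1.65 and 2.53 CPM in the High libraries and 109, 119 and 99.1 in the MedLow libraries (log2 fold change -5.80, SE 0.17, adjusted p = 3.1e-11). Ligand and receptor were thus apart in opposite directions. The semaphorin receptor Nrp2 had 330.0, 335 and 307 CPM in the High libraries and 14.2, 10.8 and 18.4 in the MedLow libraries (log2 fold change 4.48, SE 0.24, adjusted p = 1.3e-07), and Robo1 rose by 1.96, while Ntrk3 fell by 6.24.

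Genes of cell division were lower in High. All 20 genes of G2 and M phase tested fell, with a median of -1.42. Mki67 had 223, 190.2 and 163 CPM in the High libraries and 522, 601 and 536 in the MedLow libraries (log2 fold change -1.52, SE 0.11, adjusted p = 5.3e-08), and Cdk1 had 28.7, 23.3 and 16.2 CPM in the High libraries and 39.9, 40.4 and 39.8 in the MedLow libraries (log2 fold change -0.82, SE 0.16, adjusted p = 0.00075), so neither overlapped. Cenpe (-1.78) and Cenpa (-1.69) differed most, and Cenpf's call was lost on the TPM scale (adjusted p between 0.126 and 0.222). Of 21 S phase genes 11 fell and none rose, with a median of -0.45, but 3 fell on the TPM scale. Of 12 cell cycle inhibitors, 3 rose (5 with library size only, 5 or 6 on the TPM scale) and 4 fell. Cdkn2b rose by 1.45 and Cdkn2c fell by 1.29.

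Of 17 glycolysis genes, 11 fell (6 or 7 on the TPM scale) and 1 rose, with a median of -0.45. The glucose transporter Slc2a1 (-1.36) and Pfkp (-1.49) differed most, and Ldhb rose by 1.07. Among 18 immediate early genes, 8 fell and none rose, with a median of -0.39; 1 rose with the replicate block and on the TPM scale. Myc (47.5 ± 15.2 CPM in High and 335 ± 53.9 in MedLow; -2.82) and Fosl1 (-2.20) fell, while Fos differed by 0.06 (adjusted p = 0.742). Of 10 heat shock genes 3 fell and none rose, with a median of -0.19. With library size scaling, DESeq2, the block, TPM or without High replicate 2, 1 rose. The 3 became 1 under library size scaling, on the TPM scale and without High replicate 1 or MedLow replicate 2.

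**Figure D5:**
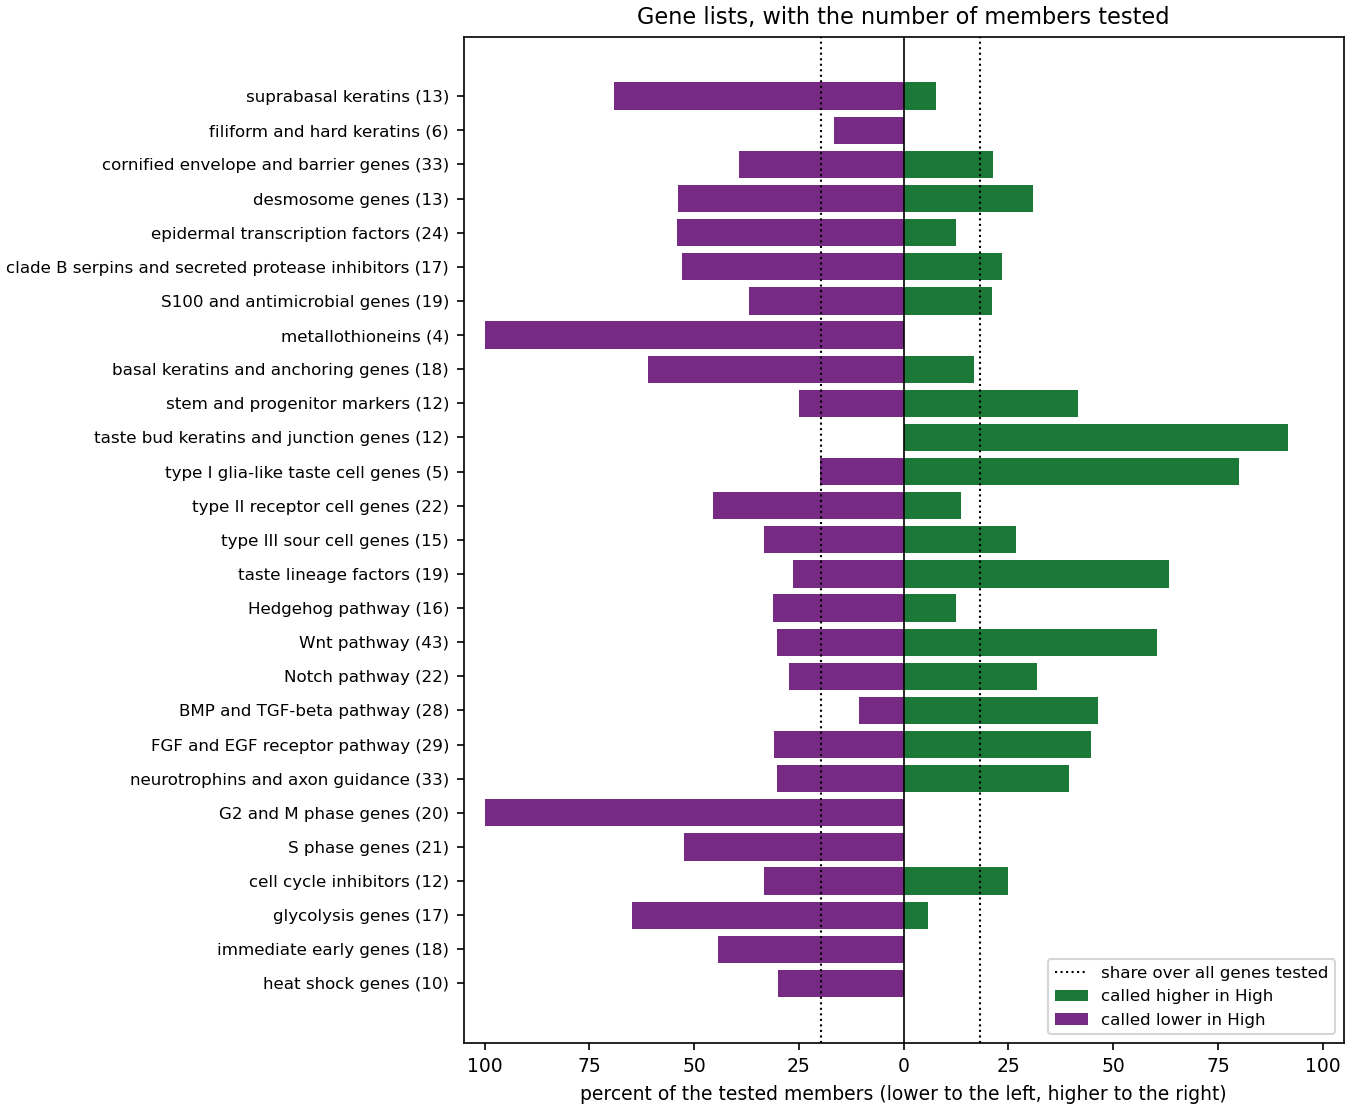
Bars give the percent of tested members called lower (left, purple) and higher (right, green) in High for each list, with the number tested in brackets. Dotted lines mark the shares over all genes tested, 19.7% lower and 18.2% higher. All G2 and M phase genes and metallothioneins lie to the left, and 91.7% of the taste bud keratins and junction genes to the right.

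Many markers of other cell types were low in both bins, but the summed level of several lists was not. Of 6 fibroblast markers tested, 2 rose and 2 fell: fibronectin, Fn1, stood at 131 ± 4.28 CPM in High and 22.4 ± 0.560 in MedLow and the proteoglycan Dcn at 6.95 ± 4.2 CPM in High and 143 ± 42.9 in MedLow (log2 fold change -4.36, adjusted p = 0.00012), while Col1a1 and Vim were below 1 CPM. The 5 endothelial markers tested summed to 48.2 to 84.0 CPM in High and 10.02 to 13.4 in MedLow. Most of this was Vwf (56.5 ± 20.6 CPM in High and 7.26 ± 0.727 in MedLow). Pecam1 stood below 1 CPM in both, and Cdh5, Kdr and Emcn did not pass the filter. Cdh5 had 28 counts over the High libraries and 0 over the MedLow libraries, Kdr 0 and 7, and Emcn 0 and 0. Of the 5 tested, 2 rose and none fell; 1 rose with limma voom, the 1 CPM filter, only the 6 libraries, unfiltered TPM, and without High replicate 1 or 2 or MedLow replicate 2 or 3. The leukocyte marker Ptprc stood at 0.0797 and 0.0565 CPM, and Cd3e, Tyrobp and Fcer1g did not pass the filter; of 5 leukocyte markers tested, Cd68 rose and H2-Ab1 fell. The list of von Ebner gland and duct genes summed to 220 to 312 CPM in High and 472 to 509 in MedLow. Of 10 tested, 4 fell and 1 rose; 2 fell with only the 6 libraries or TPM + 1, and 1 on the unfiltered TPM scale, while 2 rose with DESeq2. Its members Dmbt1 (8.67 ± 11.7 CPM in High and 198 ± 51 in MedLow; adjusted p = 0.0152) and Muc5b (-5.30) fell, while Aqp5 (5.64) rose. Dmbt1's call was lost with only the 6 libraries (adjusted p = 0.0709) and without High replicate 3 (0.0564). Muc5b's was lost with limma voom (0.0552) and with limma on unfiltered TPM + 1 (0.0707). The 7 Schwann cell and neuron markers tested summed to 319.9 to 341.3 CPM in High and 310.4 to 318.9 in MedLow. Most of this was Erbb3 (284 ± 13.2 CPM in High and 246 ± 10.5 in MedLow). Of the 7, 2 rose and 2 fell. None rose without a filter, with only the 6 libraries, or without High replicate 1 or 3 or any MedLow library, and 1 rose with the replicate block. With only the 6 libraries, with TPM + 1 and on the unfiltered TPM scale 1 fell. Skeletal muscle, melanocyte and erythroid markers had no member called, although single erythroid markers were under some alternatives. The calls of Cd68, H2-Ab1, Cldn5 and Erbb3 in these lists were each lost under several alternatives. The part of these cell types in the differences above was not tested.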

How the data were processed

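RNA was measured in 12 libraries, 3 for each of 4 bins, and the 6 of High and MedLow were compared. Per the submitters' processing notes, Salmon 1.4.0 and DESeq2 1.28.1 were used and the build was mm39; for the annotation, it is not given in the sources used here. Deposited values are estimated counts per gene symbol, unscaled, and the deposited TPM values are scaled for length and total. No genome of that build was used, so genes carry no coordinates except the RefSeq promoters.

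Estimated counts were rounded. Genes passing filterByExpr (minimum count 10) were kept, and the 35238 symbols left out held 0.0339% of counts. TMM factors (a trimmed mean of log ratios) scaled the libraries, and the model was edgeR 4.0.16 in R 4.3.3 (robust quasi-likelihood, 1 term per bin, all 12 libraries). Benjamini-Hochberg adjustment was over all 17432 genes. The standard error is the one the F statistic implies. On simulated counts of this comparison (16944 genes run), 61% of 2-fold and 69% of 4-fold changes were recovered, and 9 unchanged genes were called. The simulation changed only 100 genes at each fold and held the others at the same mean in every bin. In the data 37.9% of genes were called, so these rates need not carry over. A bin with 0 counts was set at a floor of 3 counts over its libraries, 0.0200 CPM in High and 0.0254 in MedLow, which covers counting error only. Each bound divides the mean CPM of the other bin by this floor, so the spread between that bin's libraries is left out. Replicates of a bin differed by more than counting noise (chi-square per degree of freedom 27.6 to 94.9).

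Deviations from the bin mean correlated at 0.147, 0.169 and 0.179 between High and MedLow libraries of the same number, and at -0.122 to -0.0359 between others, over 9650 genes. The numbers were therefore taken to pair the libraries, although the labels do not say that a number marks 1 pool of mice. The fit behind the reported calls and p-values did not use this pairing. It entered only in the replicate block, which was run as an alternative. No label says that mice differed between replicates beyond describing pools, so p-values measure the spread between these libraries.

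The 35 gene lists (583 symbols, 581 in the table, 531 tested) and the pair of bins were chosen with earlier results of these data known, so lists are described by counts and medians without a test. Named genes are up to 12 per direction with the largest change, up to 5 called members of each list, and a set written down by name. The 12 had to be called, not overlapping, at least 10 CPM in the higher bin and without a clone or predicted-gene symbol. Other members are given for contrast. Alternatives were other scalings, filters, tools (DESeq2 1.42.0, limma 3.58.1), TPM, the replicate block, the 6 libraries alone and each library left out. Values of some list members are not reported here.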

Additional observations from a re-analysis of the deposited data

How the results depend on the processing

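The number of genes called stayed within 1.5 times the 6603 reported under every alternative run, from 5315 to 7080, and was 5407 to 6192 with 1 library left out (2545 to 2951 higher and 2862 to 3241 lower). What changed most was the balance of directions. Called lower were 1764 genes with TPM + 1, 1846 with TPM + 0.1 and 1571 with unfiltered TPM + 1, against 3431, and the cause was not tested. With the replicate block 6803 were called, and 6394 of the 6603 calls were kept; among the genes named in the text the block ended the calls of Cldn5 (adjusted p = 0.0526), Rspo3 (0.0657) and S100a4 (0.0502). Directions turned for 3 named genes. The Hes1 log2 fold change, at -0.01, stood at 0.0892 with library size only, 0.0084 with RLE or DESeq2, 0.0029 with voom, 0.013 with the 1 CPM filter, 0.0078 with the replicate block and 0.25 on each TPM scale, and between -0.181 and 0.159 with 1 library left out. The Car4 log2 fold change, at 0.15, stood at -0.0101 with TPM + 1, filtered or not, and at -0.0179 with TPM + 0.1, and between -0.0868 and 0.27 with 1 library left out. Cdon, at -0.71, stood at 0.0309 with TPM + 1, filtered or not, and at 0.0245 with TPM + 0.1. At 39.0 to 53.4 M counts a library, a bin with no count could hold up to 3 counts, 0.0200 CPM in High and 0.0254 in MedLow.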

Other observations

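The following families were grouped by symbol after their values were seen. Genes of cytosolic ribosomal proteins were lower in High: of 76 tested, 71 fell and none rose, with log2 fold changes from -1.30 to -0.17 and a median of -0.79. They summed to 24450 to 30930 CPM in the High libraries and 47470 to 52830 in the MedLow libraries. Under the alternatives run, 67 to 73 fell. Many have near-identical processed copies, so single members are uncertain. Of 13 protein genes encoded by mitochondrial DNA, 7 fell and none rose (2 fell on the TPM scale).

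Insulin-like growth factor genes were split. Igf1 had counts in High only, while the binding proteins Igfbp2 (5.11 ± 0.605 CPM in High, 503 ± 56.9 in MedLow) and Igfbp3 (48.9 ± 8.55 and 535 ± 7.75) fell by 6.62 and 3.45 on the log2 scale. Among 40 chemokines and interleukins, 9 rose (5 without MedLow replicate 3) and 13 fell. The epithelial chemokine Cxcl14 stood at 1421 ± 501 CPM in High and 42.5 ± 5.36 in MedLow, and the alarmins Il1a (3.46) and Il33 (1.55) rose, while the neutrophil attractants Cxcl5 (-4.76) and Cxcl3 (-4.77) fell and another, Cxcl1 (0.49, adjusted p = 0.0368 in edgeR's quasi-likelihood test), rose. Of 14 claudins, 6 rose, among them Cldn3 (2.90), and 3 fell, among them Cldn1 (-2.40). Serglycin, Srgn, stood at 79.5 ± 4.35 CPM in High and 0.497 ± 0.225 in MedLow, and the protease gene Gzma at 37.9 ± 21 and 0.361 ± 0.115, both genes best known from blood cells. Of the leukocyte markers, Ptprc was below 0.1 CPM in both bins. Itgax, Tyrobp and Fcer1g, which did not pass the filter, had 26, 21 and 11 counts over the High libraries and 0 over the MedLow libraries. Cd207 and Cd3e, also left out by the filter, had 0 counts in both bins. The 5 leukocyte markers tested ran from -4.905 to 0.93 with a median of -0.44, and 1 rose and 1 fell. The part of other cells in this was not tested.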
